A study of Mus musculus with 4 samples.

Results

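The genes described here are the collagens and a set of fibroblast matrix genes, as measured in mouse embryonic stem (ES) cells with and without Snai1. A gene was included if its symbol was that of a collagen chain (Col, a number, a, a number) or if it was one of 12 listed matrix genes, Fn1, Sparc, Lum, Dcn, Postn, Lox, Thbs1, Thy1, Timp1, Fbn1, Bgn and Ctgf. By symbol 52 genes were found, and Ctgf was found under its newer symbol Ccn2, which gave 53 genes of 18193 on the array, 42 collagens and 11 others. Fbn1 was not analysed here, since no probe set carried its symbol alone. A gene's values are those of its brightest probe set, by the mean of its 4 values.

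The data are 4 Affymetrix arrays, 2 of Snai1 knockout ES cells (KO.ES) and 2 of control ES cells (F/F.ES). Snai1 encodes Snail, a zinc finger repressor that drives epithelial-mesenchymal transition. All cells were kept in leukaemia inhibitory factor on a feeder layer, with no other treatment, and RNA was labelled from its 3' end. The labels do not explain F/F, name no clone, age or feeder type, and give the control a source name that also holds the words knock out, so every direction rests on the titles and the genotype field. The 2 arrays of a group are called biological replicates, numbered 1 and 2, without a statement of what separated them, so p-values measure only the spread between these samples. What a replicate number shares between the groups is not stated either.

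Collagens are trimeric proteins wound from chains of repeated glycine triplets. Types I, III and V form the fibrils of connective tissue, type IV forms the network of basement membranes, and type VI forms beaded filaments around cells. Fibroblasts, the usual feeder cells of ES cultures, are the best-known source of fibrillar collagen, while basement membrane chains are also made by early embryonic cells and their endoderm derivatives. Glycoproteins such as fibronectin, small leucine-rich proteoglycans such as decorin and biglycan, and the cross-linking enzyme lysyl oxidase complete this matrix.

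All values are log2 expression values as deposited, with array medians between 4.91 and 4.95. Precision is limited throughout by having 2 arrays a group. Probe sets for Bacillus transcripts, which no mouse RNA should bind, reached 4.77 and served as the background. Of the 53 matrix genes 30 lay above this level on every array, 7 on some arrays and 16 on none. The 12 ES cell markers on a separate list all lay above it on every array, with mean levels of 11.58 and 11.48 in the knockout, against 11.15 and 11.28 in the control. The 3' probe set of Actb exceeded its 5' probe set by 1.11 and 0.80 in the knockout, against 3.02 and 2.97 in the control, so this gauge of RNA quality differed between the groups. Snai1 itself stood at 3.79 and 4.04 in the knockout, against 4.41 and 4.69 in the control, at or under the background on all arrays, and did not pass the test (limma adjusted p = 0.0692). Its level therefore checks nothing about the labels.

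Matrix genes passed tests both between knockout and control and between arrays numbered 1 and 2, and the count by group depended on whether the replicate number was in the fit. With limma across all genes and the group alone in the fit, 2 of the 53, Col18a1 and Col2a1, rose in the knockout and none fell, against 4.14% of all genes called in either direction (1.98% higher, 2.17% lower). In a fit of group and replicate number, 13 of the 53 were higher in the arrays numbered 1 and none was lower, against 0.561% of all genes higher and 0.418% lower. In that same fit 9 of the 53 passed between the groups, 2 higher and 7 lower in the knockout, against 17.0% of all genes (6.6% higher, 10.4% lower). With the replicate number alone in the fit no gene passed (16 matrix genes and 448 of all genes at an unadjusted limma p under 0.05). Group differences and their tests are from the fit without the replicate number unless the text says otherwise. The replicate difference was larger in size than the group difference for 38 of the 53 genes (71.7%), against 36.7% of all genes. The 2 calls with the group alone and the 13 by replicate number did not withstand every way of handling the probe sets. In a setting chosen after seeing the data, the brightest probe sets were tested among all 34945 probe sets with 1 symbol. Neither test then called a member (smallest limma adjusted p = 0.0572 by group and 0.123 by replicate number, with 3 and 22 members at an unadjusted p under 0.05). The 9 group calls of the fit with the replicate number were not put to other ways of handling the probe sets.

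Promoter windows were compared because Snail binds the sequence CAGGTG, and because several of these genes moved together. Sequences are from RefSeq (GRCm38.p6), which held 41 windows for 37 of the 53 genes, and the 250 bases before each start were searched on both strands. CAGGTG was in 4 windows (9.76%), those of Col4a4, Col6a5, Col8a1 and Col16a1, against 17.2% of all 32851 windows. CCAAT, the box bound by NF-Y, was in 34.1% of the matrix windows and 33.9% of all, and TATAAA was in 14.6% and 12.4%. The CCAAT and TATAAA searches were added after the data were seen, and each window below held 1 of the 3 motifs. Shown are Col18a1, which rose in the knockout, and Col1a2, Col3a1 and Col8a1, which were higher in the arrays numbered 1, each 5' to 3' with any of the 3 motifs in capitals (ATTGG and CACCTG are CCAAT and CAGGTG on the other strand).
Col18a1, chr10:77166531-77166780, minus strand: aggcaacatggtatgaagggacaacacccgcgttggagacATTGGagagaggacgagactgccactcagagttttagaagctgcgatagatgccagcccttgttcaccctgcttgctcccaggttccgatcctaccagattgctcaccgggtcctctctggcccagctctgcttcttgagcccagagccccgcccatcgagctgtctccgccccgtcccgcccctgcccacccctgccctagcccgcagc
Col1a2, chr6:4505368-4505617, plus strand: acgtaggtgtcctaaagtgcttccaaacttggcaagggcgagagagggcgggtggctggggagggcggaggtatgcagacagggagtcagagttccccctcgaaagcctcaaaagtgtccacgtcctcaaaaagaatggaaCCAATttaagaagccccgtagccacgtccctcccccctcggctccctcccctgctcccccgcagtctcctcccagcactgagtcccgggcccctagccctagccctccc
Col3a1, chr1:45311288-45311537, plus strand: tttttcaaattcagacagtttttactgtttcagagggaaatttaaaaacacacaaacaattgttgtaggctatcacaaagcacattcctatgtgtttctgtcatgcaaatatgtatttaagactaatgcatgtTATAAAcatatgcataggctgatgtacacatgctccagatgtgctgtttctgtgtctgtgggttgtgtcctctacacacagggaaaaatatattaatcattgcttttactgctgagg
Col8a1, chr16:57754738-57754987, minus strand: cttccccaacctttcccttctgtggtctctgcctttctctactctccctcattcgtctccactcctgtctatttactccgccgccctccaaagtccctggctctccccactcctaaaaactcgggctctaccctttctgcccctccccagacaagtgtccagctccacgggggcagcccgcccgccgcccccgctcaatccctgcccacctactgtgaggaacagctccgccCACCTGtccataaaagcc

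Of these 4 genes, Col8a1 alone had CAGGTG in the window shown, and its group difference was -0.26 ± 0.31 (SE, limma adjusted p = 0.700). A second start of Col18a1 had none of the 3 motifs in its window. A match is a run of letters and not a measured binding site.

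**Figure D1:**
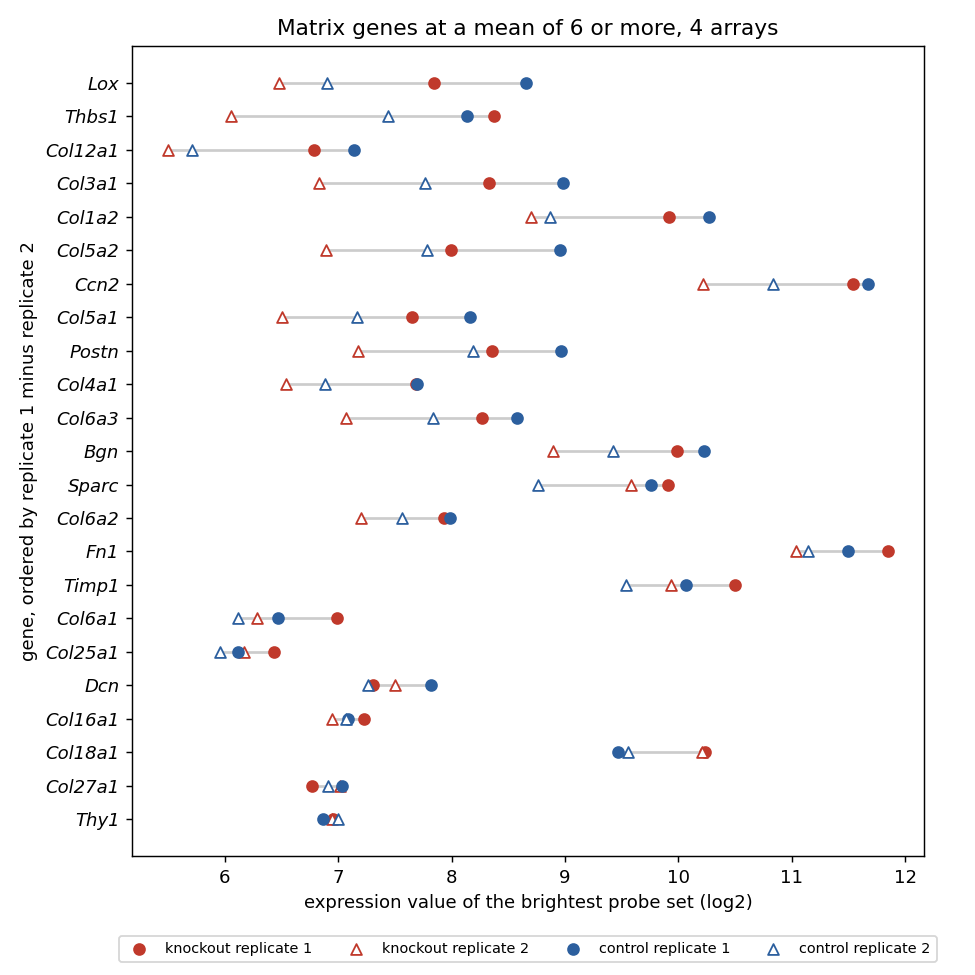
Values of the 23 matrix genes with a mean of 6 or more (x axis, log2; 1 gene per line, ordered by the difference between replicate numbers). Filled circles are arrays numbered 1 and open triangles arrays numbered 2, red for knockout and blue for control; for the genes in the upper part of the plot, from Lox down to Bgn, both circles lie to the right of both triangles, while Col18a1 separates by colour.

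Among the fibril-forming collagens, 4 of 11 chains were higher in the arrays numbered 1 and 1, Col2a1, was higher in the knockout. Col1a2, a chain of the type I collagen of skin and bone, was at 9.92 and 8.70 in the knockout, against 10.27 and 8.86 in the control, with the array numbered 1 given first here and below. The array numbered 1 was the higher one in each group, and the groups overlapped. The replicate difference was 1.31 ± 0.14 (SE, limma adjusted p = 0.00133), a 2.49-fold change, whereas knockout minus control was -0.26 ± 0.50 (SE, limma adjusted p = 0.829).

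Col3a1, the chain of the type III collagen found beside type I in elastic tissues, was at 8.33 and 6.83 in the knockout, against 8.98 and 7.76 in the control. Both arrays numbered 1 lay above both arrays numbered 2, by 1.36 ± 0.15 (SE, limma adjusted p = 0.00124). Col5a2, a chain of the type V collagen that sets fibril width, was at 8.0 and 6.89 in the knockout, against 8.96 and 7.78 in the control. Here too the arrays numbered 1 were higher, by 1.14 ± 0.14 (SE, limma adjusted p = 0.00362), and the knockout lay below the control array of the same number. The group difference of Col5a2, -0.93 ± 0.44 (SE), was the largest by size among the 53 genes and did not pass (limma adjusted p = 0.261). Col5a1, its partner chain, was at 7.65 and 6.50 in the knockout, against 8.16 and 7.17 in the control. It was 2.11-fold higher in the arrays numbered 1 (limma adjusted p = 0.00462), with a group difference of -0.59 ± 0.42 (SE). A second probe set of Col5a1, nearly as bright, differed by 0.08 ± 0.21 (SE) between the groups and by 0.43 between the replicate numbers. A dimmer one differed by 0.10 and 0.09.

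Col1a1, the partner of Col1a2 in type I collagen, stood apart from these chains in its group difference. It was at 6.45 and 5.65 in the knockout, against 5.71 and 5.47 in the control, so the array numbered 1 was again the higher one in each group. Its replicate difference of 0.52 ± 0.16 (SE, limma adjusted p = 0.202) and its group difference of 0.46 ± 0.26 (SE, limma adjusted p = 0.331) did not pass. A dimmer probe set of Col1a1 differed between the groups by 0.01 and between the replicate numbers by 0.70. For Col1a2 the next probe set, at 6.82 and 5.73 in the knockout, against 7.99 and 6.73 in the control, differed by -1.09 ± 0.49 (SE) between the groups and by 1.18 between the replicate numbers. The size of the group difference of type I collagen thus varied with the probe set, and the replicate difference was positive in each of these 4.

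Col2a1, the type II collagen chain of cartilage, was at 5.83 and 5.77 in the knockout, against 5.12 and 5.10 in the control. Its arrays separated by group and not by number. It rose by 0.69 ± 0.13 (SE, limma adjusted p = 0.0429), a 1.61-fold difference, with a replicate difference of 0.04, and it has 1 probe set. The remaining fibril-forming chains did not pass either test. Col5a3 lay between 4.72 and 5.33 and Col11a2 between 4.57 and 5.02. Col27a1, a chain of cartilage fibrils, lay between 6.77 and 7.03. Col11a1 and Col24a1 stayed at or under the background on all arrays.

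The basement membrane chains Col4a1 and Col4a2, which assemble into the common type IV collagen, followed the replicate number. Col4a1 was at 7.68 and 6.54 in the knockout, against 7.69 and 6.88 in the control, a replicate difference of 0.98 ± 0.15 (SE, limma adjusted p = 0.0105) beside a group difference of -0.18 ± 0.39 (SE). The array numbered 1 was the higher one in each group. Col4a2 was at 5.80 and 4.87 in the knockout, against 5.20 and 4.70 in the control, and its replicate difference of 0.72 ± 0.15 (SE) missed the threshold (limma adjusted p = 0.0514). The other 4 chains of the type, Col4a3 to Col4a6, which make up the membranes of kidney, lung and other specialised tissues, were at the background level on all arrays. A dimmer probe set of Col4a1 differed by 0.65 ± 0.27 (SE) between the groups, opposite in sign to the brightest.

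Of the type VI chains, Col6a3 was at 8.27 and 7.07 in the knockout, against 8.57 and 7.83 in the control, higher in the arrays numbered 1 by 0.97 ± 0.16 (SE, limma adjusted p = 0.0134). Its partners Col6a1 and Col6a2 had replicate differences of 0.53 ± 0.15 and 0.58 ± 0.15 (SE) that did not pass (limma adjusted p = 0.155 and 0.107). Col6a1 was at 6.98 and 6.28 in the knockout, against 6.47 and 6.11 in the control. For all 3 chains the array numbered 1 was higher in both groups, and their group differences, 0.34 for Col6a1, -0.21 for Col6a2 and -0.53 for Col6a3, did not share a sign. The sign for Col6a2 varied with the probe set: its other one differed by 0.21 ± 0.17 (SE) between the groups and by 0.24 between the replicate numbers. Col6a4 and Col6a5 lay near or under the background.

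Col12a1, which lies along the surface of type I fibrils, was at 6.79 and 5.50 in the knockout, against 7.14 and 5.71 in the control. It was 2.57-fold higher in the arrays numbered 1 (limma adjusted p = 0.00113), and its group difference was -0.28 ± 0.52 (SE). A dimmer probe set of Col12a1, above the background on every array, differed by only 0.29 between the replicate numbers. Between the groups it differed by -0.05 ± 0.18 (SE). Col8a1, a short-chain collagen of vessel walls and the cornea, was at 5.65 and 4.86 in the knockout, against 5.88 and 5.14 in the control, a replicate difference of 0.76 ± 0.14 (SE, limma adjusted p = 0.0264). The other 8 fibril-associated chains passed neither test, and their replicate differences were small beside that of Col12a1. Col16a1, for example, lay between 6.94 and 7.22, and Col9a3 between 5.59 and 5.67. Col7a1, the anchoring fibril collagen of skin, lay between 5.48 and 5.96, and Col8a2 and Col10a1 were at the background level.

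Col18a1, the basement membrane collagen whose end fragment is endostatin, was at 10.24 and 10.21 in the knockout, against 9.47 and 9.55 in the control. The knockout arrays lay above both control arrays, with gaps between the numbers of 0.03 in the knockout and -0.08 in the control. It rose by 0.71 ± 0.13 (SE, limma adjusted p = 0.0419), a 1.64-fold difference. A second bright probe set of Col18a1 did not show this: it was at 9.66 and 9.49 in the knockout, against 9.34 and 9.53 in the control, a difference of 0.14 ± 0.15 (SE) with overlapping groups. Col15a1, the other collagen of this class, was at the background level. In the group of membrane-spanning and other collagens, Col25a1 lay between 5.96 and 6.43 (knockout against control, limma adjusted p = 0.353). The other 4 of that group, Col13a1, Col17a1, Col23a1 and Col26a1, were at the background level.

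**Figure D2:**
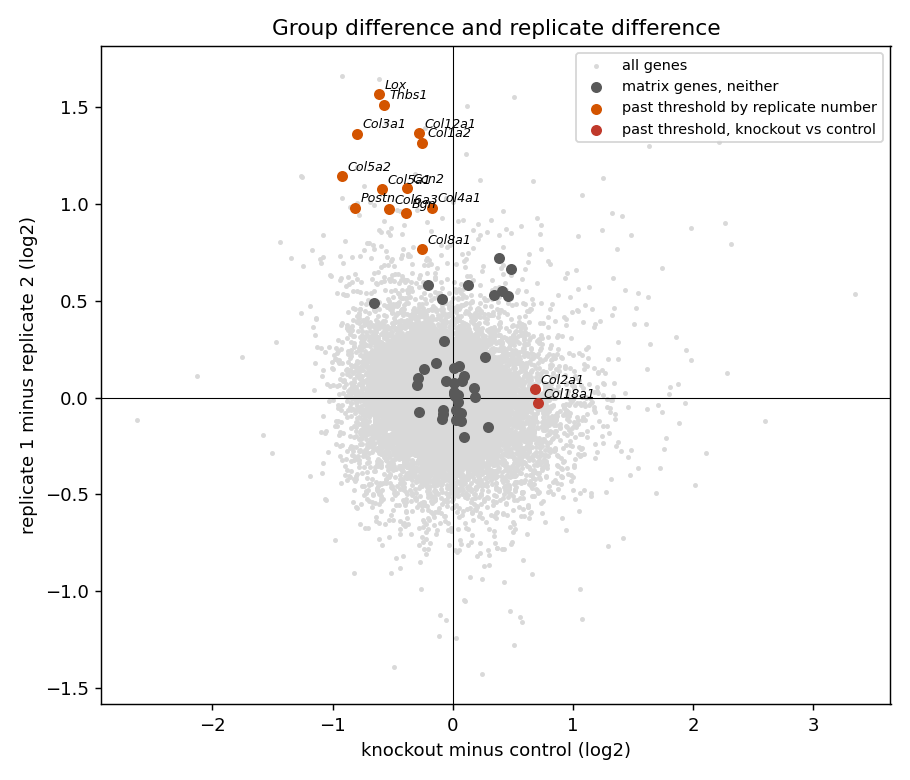
Each point is a gene, with knockout minus control (x axis, log2) against replicate 1 minus replicate 2 averaged over the groups (y axis, log2); grey points are all 18193 genes, dark points matrix genes past neither threshold, orange points the 13 past the threshold by replicate number and red points the 2 past it between the groups. The orange points lie at 0.76 to 1.56 on the y axis, and Col2a1 and Col18a1 lie near 0 on it at 0.69 and 0.71 on the x axis.

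Among the adhesive and matricellular glycoproteins, 3 of 5 were higher in the arrays numbered 1 and none passed between the groups. Thbs1, the TGF-beta activating thrombospondin, was at 8.37 and 6.05 in the knockout, against 8.13 and 7.44 in the control. Its replicate gap was 2.32 in the knockout, against 0.70 in the control, with knockout replicate 2 far below the other 3 arrays, and its replicate difference was 1.51 ± 0.27 (SE, limma adjusted p = 0.0231). A dimmer probe set of Thbs1 was at 6.02 and 4.91 in the knockout, against 5.53 and 5.17 in the control. It differed by 0.12 ± 0.36 (SE) between the groups, where the brightest differed by -0.57, and by 0.74 between the replicate numbers. Postn, the fibroblast protein periostin, was at 8.36 and 7.17 in the knockout, against 8.96 and 8.19 in the control, with a replicate difference of 0.98 ± 0.15 (SE, limma adjusted p = 0.0118) and a group difference of -0.81 ± 0.39 (SE, limma adjusted p = 0.267). Ccn2, the connective tissue growth factor induced by TGF-beta and YAP, was at 11.54 and 10.22 in the knockout, against 11.67 and 10.84 in the control, 2.11-fold higher in the arrays numbered 1 (limma adjusted p = 0.00841).

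By their brightest probe sets, fibronectin and Sparc had the same order of arrays within each group, and neither passed a test. Fn1 was at 11.85 and 11.04 in the knockout, against 11.49 and 11.14 in the control, a replicate difference of 0.58 ± 0.16 (SE, limma adjusted p = 0.132) and a group difference of 0.12 ± 0.26 (SE). Its second probe set was at 7.76 and 7.40 in the knockout, against 7.40 and 5.96 in the control, with control replicate 2 far below the other arrays. It differed by 0.90 ± 0.44 (SE) between the groups and by 0.90 between the replicate numbers. Sparc, a collagen-binding glycoprotein also made by parietal endoderm, was at 9.91 and 9.58 in the knockout, against 9.76 and 8.76 in the control. In this probe set control replicate 2 stood apart below the other arrays. Neither the replicate difference of Sparc, 0.66 ± 0.17 (SE, limma adjusted p = 0.111), nor its group difference of 0.48 ± 0.30 (SE, limma adjusted p = 0.400) passed. A dimmer probe set of Sparc was at 9.39 and 8.55 in the knockout, against 8.46 and 8.29 in the control. It differed by 0.60 ± 0.28 (SE) between the groups and by 0.51 between the replicate numbers. The dimmest was at 6.64 and 6.83 in the knockout, against 6.45 and 6.39 in the control. Its group difference was 0.31 ± 0.14 (SE) and its replicate difference -0.07. In each of these dimmer probe sets the knockout arrays lay above both control arrays.

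The small leucine-rich proteoglycans, which bind collagen fibrils, did not behave alike. Bgn, biglycan, was at 9.98 and 8.89 in the knockout, against 10.23 and 9.42 in the control, and was 1.93-fold higher in the arrays numbered 1 (limma adjusted p = 0.0114). Its 2 other probe sets, both bright, had replicate differences of 0.96 and 0.64. Dcn, decorin, was at 7.30 and 7.5 in the knockout, against 7.82 and 7.26 in the control, so the array numbered 1 was the lower one in the knockout and the higher one in the control (replicate difference 0.18 ± 0.18, SE). Lum, lumican, was at 4.76 and 4.19 in the knockout, against 5.33 and 4.93 in the control. Both knockout arrays of Lum were at or under the background and below both control arrays, a difference of -0.66 ± 0.22 (SE) that did not pass (limma adjusted p = 0.130).

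Lox, which cross-links collagen and elastin, had the largest replicate difference of the 53 genes. It was at 7.85 and 6.48 in the knockout, against 8.65 and 6.90 in the control, 2.95-fold higher in the arrays numbered 1 (limma adjusted p = 0.00113), with a group difference of -0.61 ± 0.60 (SE, limma adjusted p = 0.617). Its other bright probe set, at 6.67 and 5.79 in the knockout, against 7.55 and 6.21 in the control, had a replicate difference of 1.11. Timp1, a metalloproteinase inhibitor, was at 10.50 and 9.93 in the knockout, against 10.07 and 9.53 in the control, with replicate gaps of 0.57 and 0.53 (limma adjusted p = 0.111). Thy1, a surface marker of many fibroblasts, lay between 6.86 and 6.99 on all 4 arrays and passed neither test.

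**Figure D3:**
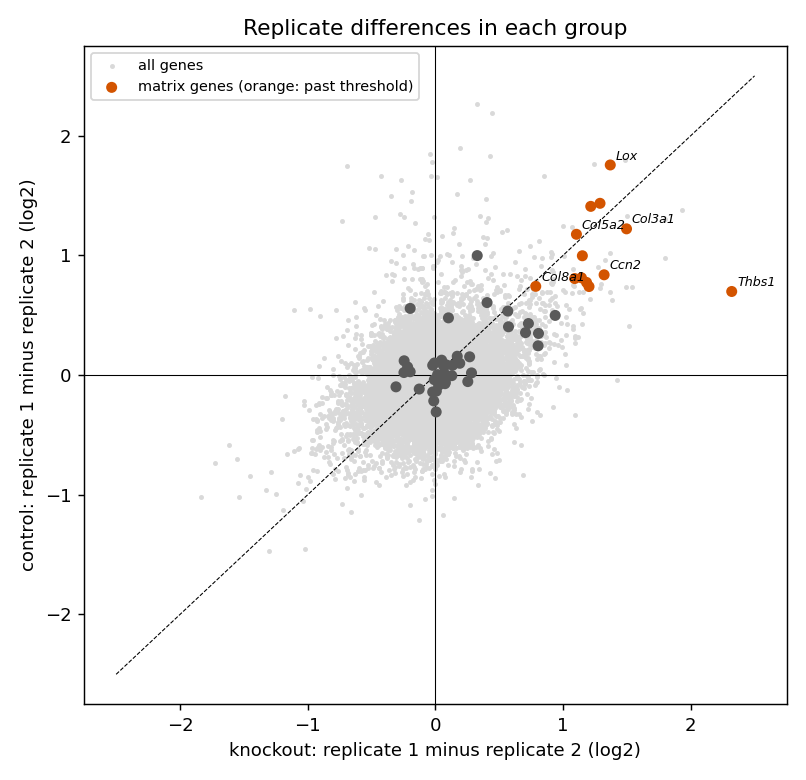
Replicate 1 minus replicate 2 in the knockout (x axis, log2) against the same in the control (y axis, log2), with all genes in grey, the 53 matrix genes in dark grey or, for the 13 past the threshold, orange, and a dashed line where both gaps are equal. The orange points all lie above 0 on both axes, with Thbs1 far to the right at 2.32 and 0.70 and Lox highest at 1.37 and 1.76.

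Counted over the set, 33 of the 53 genes (62.3%) were higher in the array numbered 1 in both groups, against 24.5% of all genes, and 14 (26.4%) were higher by more than 0.5 in both, against 0.753% of all genes. Of the 16 at the background level on all arrays, 3 were higher in both. Among the 23 matrix genes with a mean of 6 or more, 19 were higher in both groups (82.6%), against 26.1% of the genes at that level, and 13 by more than 0.5 (56.5% against 1.14%). The replicate difference was the larger one for 20 of these 23 (87.0%), against 28.8%, and 12 of them passed by replicate number, against 0.886%. Both knockout arrays lay above both control arrays for 2 of the 23 and below them for 0, against 24.3% and 39.3% of the genes at that level. The median gap of these 23 was 1.09 in the knockout, against 0.74 in the control, against 0.06 and -0.08 over all genes of that level. The 13 genes past the threshold made up 24.5% of the matrix genes and 12.7% of the 102 genes that were higher in the arrays numbered 1.

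Over all 53 genes the group differences were spread around 0. Their median was 0.01, against -0.02 over all genes, with 27 positive and 26 negative. For the 23 with a mean of 6 or more the median was -0.21, against -0.09 over all genes at that level. Of these 23, 8 were positive and 15 negative, against 3955 and 5529 of all genes at that level. Both knockout arrays lay above both control arrays for 8 of the 53 genes (15.1%) and below them for 5 (9.43%), against 23.1% and 29.2% of all genes. By their brightest probe sets the 13 genes past the threshold by replicate number all had a negative group difference, from -0.93 for Col5a2 to -0.18 for Col4a1, with a median of -0.53. Other probe sets of Col4a1, Col5a1, Col8a1 and Thbs1, among others, had a positive one. None of the 13 passed between the groups in the fit without the replicate number. In the fit with the replicate number, the one that called the 13, 6 of them were lower in the knockout: Col5a2, Col3a1, Postn, Col5a1, Lox and Col6a3 (limma adjusted p = 0.0018 to 0.034). Both tests of that fit use the same residual spread, so genes picked by one pass the other more easily, and the 6 are not a separate result. Lum was the other gene lower in that fit, which made 7 of the 53, against 10.4% of all genes. Among all 18193 genes 360 were higher and 394 lower in the knockout, and 527 and 337 after a further quantile normalization. Without any 1 of the 4 arrays no matrix gene passed, while 4 to 50 of all genes did and 4 to 12 matrix genes had an unadjusted limma p under 0.05. When the probe sets of each gene were averaged, no gene passed by replicate number (1771 genes and 21 matrix genes at an unadjusted p under 0.05), and the replicate differences of the 13 ranged from 0.36 for Col12a1 to 1.12 for Thbs1.

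Some fibroblast markers outside the matrix set were higher in the arrays numbered 1 as well. Of 15 measured markers none passed between the groups in the fit without the replicate number, and 2 were lower in the knockout when only genes at a mean of 6 or more were tested. By replicate number 3 passed, against 0.561% of all genes: the contractile genes Acta2 and Tagln and the mesenchymal transcription factor Prrx1 (0.89, 0.87 and 0.68). In both groups 9 of the 15 were higher in the array numbered 1, against 24.5% of all genes, and the replicate difference was the larger one for 8, against 36.7%. The mean level of the list was 7.14 and 6.80 in the knockout, against 7.34 and 7.0 in the control. Of the 15 markers 11 were above the background on every array, and 3, Fap, Tcf21 and Meox2, on none. Prrx1 had the largest group difference of the list, -1.24 ± 0.28 (SE, limma adjusted p = 0.0549), at 6.83 and 6.09 in the knockout, against 8.02 and 7.39 in the control, so for this gene the group difference was the larger one. The array numbered 1 had the higher mean of these markers in each group, and their part in the matrix result was not tested. In bulk RNA such as this, fewer cells of a type and less RNA per cell cannot be told apart.

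Markers of other cell types were read on the same arrays, where 0.561% of all genes passed as higher in the arrays numbered 1. Of 12 ES cell markers 4 rose in the knockout, against 1.98% of all genes, and none passed by replicate number. The group difference was positive for 7 of the 12 and negative for 5, with a median of 0.02. The largest rises were those of Utf1, a chromatin factor of undifferentiated cells (1.62), Esrrb, an orphan nuclear receptor (1.05), and Nanog, a pluripotency homeobox factor (0.94). Of 13 primitive and parietal endoderm markers none passed between the groups and 1, Thbd, was higher in the arrays numbered 1 (0.84), with mean levels from 5.09 to 5.26 over the arrays. Of 9 endothelial markers none passed either test, the largest group difference being that of the receptor gene Tek, -0.90 ± 0.20 (SE, limma adjusted p = 0.0541). Of 7 muscle markers none passed between the groups, where cardiac actin, Actc1, differed by 0.65 ± 0.17 (SE, limma adjusted p = 0.0718). All 7 had a positive group difference, with a median of 0.33. For 5 of the 7 both knockout arrays lay above both control arrays, against 23.1% of all genes. Actg2 was higher in the arrays numbered 1 (0.71).

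**Figure D4:**
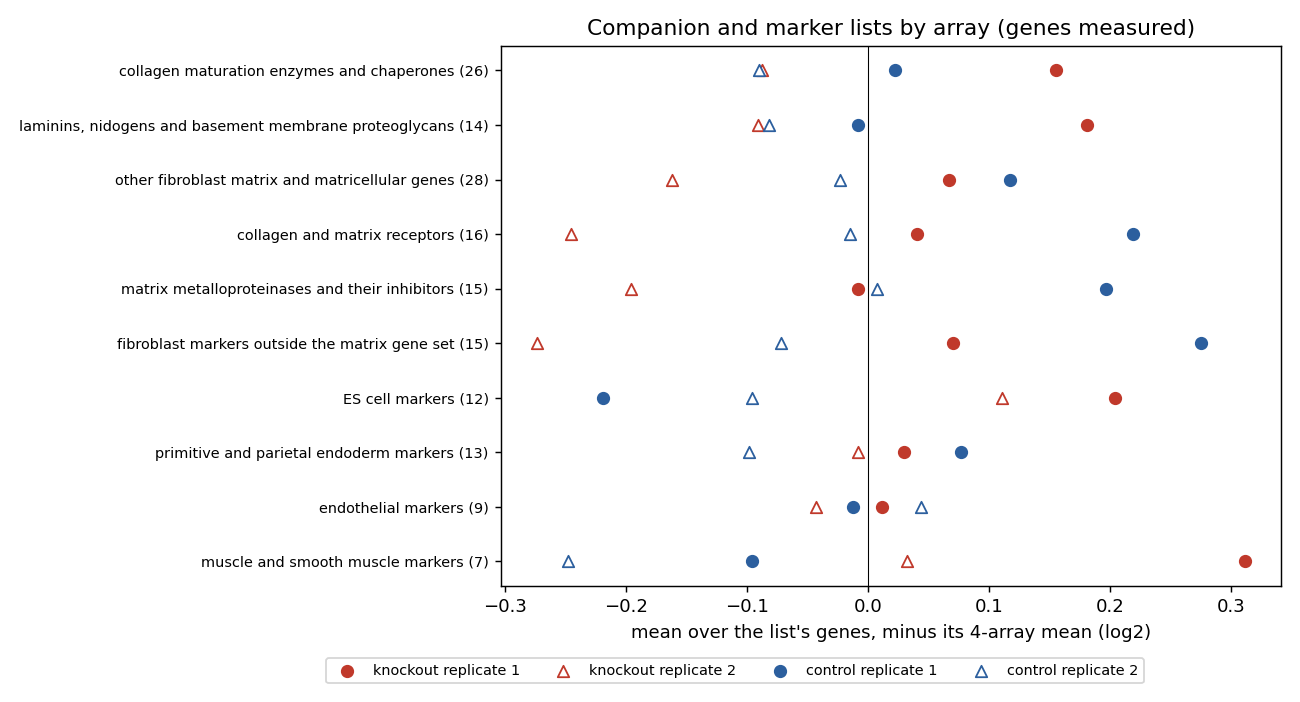
Mean level of each companion and marker list on each array, minus its mean over the 4 arrays (x axis, log2; number of measured genes in brackets); filled circles are arrays numbered 1, open triangles arrays numbered 2, red knockout and blue control. The fibroblast markers order the arrays from 6.80 in knockout replicate 2 to 7.34 in control replicate 1 before centring, and the ES cell markers place both knockout arrays to the right of both control arrays.

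The rest of the matrix pathway was followed in 5 lists, whose counts stand beside the shares of all genes called. Between the groups these were 1.98% higher and 2.17% lower in the knockout, and by replicate number 0.561% higher and 0.418% lower in the arrays numbered 1. Of 26 enzymes and chaperones of collagen maturation, 1 fell in the knockout and none rose. It was Sec24d, a coat protein that exports collagen from the endoplasmic reticulum, at 8.40 and 8.43 in the knockout, against 9.12 and 9.15 in the control (-0.72 ± 0.13, SE, limma adjusted p = 0.0405). By replicate number 1 of the 26 was higher, the lysyl oxidase relative Loxl1 (0.91), which, like the further genes given by replicate number here, was named after its values were seen. Of 14 laminins, nidogens and proteoglycans of the basement membrane, Lama5, a laminin chain of epithelial basement membranes, rose: it was at 8.18 and 8.27 in the knockout, against 7.47 and 7.62 in the control (0.68 ± 0.14, SE, limma adjusted p = 0.0456). None of the 14 passed by replicate number. With the probe sets of each gene averaged, no gene of this list passed between the groups.

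Of 28 other fibroblast matrix genes 5 were higher in the arrays numbered 1: Fbln2, a fibulin (1.12), Thbs2, a thrombospondin (1.03), Tnc, tenascin C (1.01), Ccn1, a relative of Ccn2 (0.84), and Efemp1, another fibulin (0.72), which was above the background on 1 array only. Between the groups 1 of the 28 passed, Ccn3, which fell by 0.97 ± 0.18 (SE, limma adjusted p = 0.0422) to 4.19 and 3.99 in the knockout, within the background, from 4.84 and 5.28 in the control. Of 16 matrix receptors, the integrin Itgb3 fell by 0.82 ± 0.17 (SE, limma adjusted p = 0.0487). The hyaluronan receptor Cd44 (0.85) and the integrin Itgav (0.70) were higher in the arrays numbered 1. For Itgav the group difference was the larger one in size, -0.91 ± 0.29 (SE), and did not pass (limma adjusted p = 0.112). The calls of Ccn3 and Itgb3 were lost with averaged probe sets. Of 15 matrix metalloproteinases and inhibitors, Mmp3, stromelysin, fell: it was at 7.88 and 7.79 in the knockout, against 8.67 and 8.76 in the control (-0.88 ± 0.13, SE, limma adjusted p = 0.0326) with replicate gaps of 0.10 and -0.09. Mmp13, the interstitial collagenase of rodents, was higher in the arrays numbered 1 (0.84). Its group difference was larger in size, -1.08 ± 0.34 (SE), and did not pass (limma adjusted p = 0.104). Both knockout arrays of Mmp13 lay below both control arrays. Beside all these group differences stands the Actb gap given above, which was larger in the control by 2.04, and its part in them was not tested.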

How the data were processed

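RNA of 4 samples was hybridised to Affymetrix mouse arrays. The values deposited by the authors are log2 expression values per probe set. Per the submitters' processing notes, RMA, which corrects background, normalises between arrays and summarises probes, and limma were used, with versions and settings not given in the sources used here. Of 45101 probe sets, 64 controls were set aside, 932 had several gene symbols and 9211 had none. The brightest probe set stood for each of 18193 genes. The groups were compared in limma 3.58.1 (R 4.3.3) (lmFit, eBayes, no covariate, 2 residual and 5.31 prior degrees of freedom), two-sided, with Benjamini-Hochberg adjustment over all genes and a threshold of 0.05. Replicate numbers were compared in a fit with group and number (1 residual and 11.5 prior degrees of freedom). SE is limma's moderated standard error. The group test was run on simulated data with independent noise. It found 73 of 100 genes changed by a log2 of 1 and 98 of 100 changed by 2, with 9 false calls. The test by replicate number was not simulated, nor was a spread shared by replicate number.

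The genes and lists were chosen with earlier results of these data known. Values on every array were given for Snai1, members past either threshold, listed non-collagens, Col1a1, Col1a2, Col3a1, Col5a1, Col5a2, Col4a1, Col4a2 and Col6a1, and the 3 largest group differences in each direction; from other lists up to 3 genes past the threshold, or the largest difference, were named. No set test was run.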

Additional observations from a re-analysis of the deposited data

How the results depend on the processing

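Of 283 alternative values for the 24 genes given on every array, 241 kept direction and side of the threshold, 10 lost and 7 gained a call and 25 changed sign. The count of all genes between the groups was 481 with an intensity trend, 321 with probe sets averaged, 1224 at a mean of 6 or more, and 4 to 50 with 1 array left out, where the single array of a group is taken to spread as the remaining pair does. For the matrix genes it was 1 with each of those first 3 settings, 0 with all probe sets tested singly and 0 to 0 with 1 array left out. Companion and marker lists gave 0 to 1 with 1 array left out. The median matrix difference was -0.21 at a mean of 6 or more, where 23 matrix genes entered, against -0.09 over all genes at that level. By replicate number, all genes gave 311 after quantile normalization, 329 after median centring, 360 at a mean of 6 or more, 0 with averaged probe sets and 0 with the number alone (448 at an unadjusted p under 0.05). Matrix genes gave 0 with averaged probe sets, 0 with the number alone (16 unadjusted) and 0 with probe sets tested singly. The cause of these changes was not tested.

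With the replicate block 3092 genes (1200 higher, 1892 lower) passed between the groups, among them 9 matrix genes, 2 higher and 7 lower (Col3a1, Col5a1, Col5a2, Col6a3, Lox, Lum and Postn), and 34 list genes, 4 of them fibroblast markers. The labels do not say that a number marks a shared day or batch. Over genes, which are not independent, same-numbered deviations correlated at r = 0.29. With 2 pairs this does not establish a pairing. Leaving out an array from the fit by replicate number leaves no residual degree of freedom and was not run.

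With probe sets averaged, the group difference was 0.24 for Col4a1 and 0.0049 for Dcn. With 1 array left out it ranged from -0.93 to 0.16 for Bgn, -1.04 to 0.28 for Ccn2, -1.0 to 0.44 for Col12a1, -0.96 to 0.45 for Col1a2, -0.75 to 0.40 for Col4a1, -0.084 to 0.85 for Col4a2, -0.011 to 0.70 for Col6a1, -1.14 to 0.068 for Col6a3, -0.65 to 0.14 for Col8a1, -0.42 to 0.14 for Dcn, -0.28 to 0.53 for Fn1, -1.49 to 0.26 for Lox, -0.016 to 0.98 for Sparc, -1.73 to 0.59 for Thbs1 and -0.043 to 0.091 for Thy1.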
